A study of Mus musculus with 9 samples.

Results

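The type I interferon effector genes are the genes that interferon-alpha and interferon-beta switch on and whose products act against viruses. Here 35 gene symbols of this kind, listed by name, were looked up in the table of gene levels of 3 mouse macrophage cultures. Every symbol was found, and Trex1 stood on 2 rows with different identifiers, so 36 of 46078 rows are described. All 36 rows were among the 11952 that passed the filter on low values. The list was drawn up with earlier results of these data known.

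The cultures came from C57BL/6J mice, an inbred strain, and were kept for at least 8 weeks. BMM were bone marrow macrophages, whose medium the labels do not state. FLM_M were fetal liver macrophages, from fetuses of gestational day 15 to 19, grown in 20% serum and 30% L-cell supernatant, which supplies M-CSF. FLM_G were fetal liver macrophages of the same gestational days, grown in 10% serum and 30 ng/ml of recombinant GM-CSF. M-CSF and GM-CSF are growth factors on which macrophages survive and divide. No interferon, infection or other stimulus is named for any culture, and no ages of the bone marrow donors are given. Each culture has 3 libraries, plated from 250000 cells per well in triplicate. Nothing in the labels says that the libraries come from separate animals or cultures, so p-values measure the spread between libraries, which may be technical.

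Macrophages sense viral nucleic acid with receptors such as RIG-I and MDA5 and answer by making interferon-beta. Secreted interferon binds the receptor chains IFNAR1 and IFNAR2, and the kinases JAK1 and TYK2 then start a signal to the nucleus. STAT2 and IRF9 are part of the complex ISGF3, which binds a DNA element called the interferon-stimulated response element, or ISRE, near its target genes. The products of those targets bind viral RNA, degrade it, block its translation, trap budding virus or limit the response itself. Many of these genes also have a basal level without added interferon.

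The promoters of some members show the element as letters. RefSeq windows on GRCm38.p6, from 250 bases before to 50 bases after an annotated start, were matched for 26 of the 35 symbols, the others being Parp9, Parp14, Rtp4, Usp18, Oas2, Ifi27l2a, Mx1, Mx2 and Dhx58. The core of the ISRE, taken as GAAA, any 2 bases and a second GAAA, was searched on both strands, and it was found in 12 of these 26 genes (46.2%), against 3.99% of 27025 genes with such windows. A longer form, in which CT follows the second GAAA, contains the core and was found in 7 of 26 (26.9%), against 0.303% of all genes. Since the members were listed as genes that interferon switches on, these higher shares are no result of the cultures. The 7 sequences that follow hold the core and belong to genes with large (Ifit3, Ifit1, Isg15, Rsad2) and moderate (Oas1a, Oas1g, Bst2) differences between the cultures. Each is the 250 bases before the start, 5′ to 3′ on the gene's own strand, with runs of the core in capitals. A run of TTTC, 2 bases and TTTC is the core on the opposite strand.

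Ifit3, chr19:34583279-34583528, plus strand: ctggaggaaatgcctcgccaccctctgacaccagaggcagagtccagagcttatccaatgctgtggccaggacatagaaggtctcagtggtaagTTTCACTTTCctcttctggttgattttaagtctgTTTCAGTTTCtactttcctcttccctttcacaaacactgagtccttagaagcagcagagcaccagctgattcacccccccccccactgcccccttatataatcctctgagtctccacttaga
Ifit1, chr19:34640639-34640888, plus strand: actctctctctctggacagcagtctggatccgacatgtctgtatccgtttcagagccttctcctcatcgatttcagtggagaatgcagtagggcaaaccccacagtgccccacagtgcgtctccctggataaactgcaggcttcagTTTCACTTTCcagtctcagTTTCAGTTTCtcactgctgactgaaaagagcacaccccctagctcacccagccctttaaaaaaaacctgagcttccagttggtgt
Isg15, chr4:156200819-156201068, minus strand: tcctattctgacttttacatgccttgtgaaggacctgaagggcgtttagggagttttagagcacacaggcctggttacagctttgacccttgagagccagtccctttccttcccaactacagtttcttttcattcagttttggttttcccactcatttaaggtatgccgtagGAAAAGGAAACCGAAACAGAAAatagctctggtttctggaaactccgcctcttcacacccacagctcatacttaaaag
Oas1a, chr5:120907526-120907775, minus strand: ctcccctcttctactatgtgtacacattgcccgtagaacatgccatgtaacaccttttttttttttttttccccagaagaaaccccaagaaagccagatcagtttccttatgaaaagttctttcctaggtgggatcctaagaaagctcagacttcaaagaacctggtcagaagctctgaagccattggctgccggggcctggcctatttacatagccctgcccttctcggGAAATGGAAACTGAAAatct
Oas1g, chr5:120887614-120887863, minus strand: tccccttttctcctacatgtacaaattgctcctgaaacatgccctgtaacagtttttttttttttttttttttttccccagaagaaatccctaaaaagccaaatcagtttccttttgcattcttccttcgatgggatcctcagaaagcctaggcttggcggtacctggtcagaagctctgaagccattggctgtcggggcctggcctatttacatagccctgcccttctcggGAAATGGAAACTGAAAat
Rsad2, chr12:26456453-26456702, minus strand: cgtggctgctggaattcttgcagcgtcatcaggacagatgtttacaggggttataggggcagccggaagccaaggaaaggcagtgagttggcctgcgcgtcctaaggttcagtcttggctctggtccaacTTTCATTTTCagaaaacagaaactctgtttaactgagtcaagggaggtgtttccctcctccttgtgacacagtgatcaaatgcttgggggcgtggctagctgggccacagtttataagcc
Bst2, chr8:71537473-71537722, minus strand: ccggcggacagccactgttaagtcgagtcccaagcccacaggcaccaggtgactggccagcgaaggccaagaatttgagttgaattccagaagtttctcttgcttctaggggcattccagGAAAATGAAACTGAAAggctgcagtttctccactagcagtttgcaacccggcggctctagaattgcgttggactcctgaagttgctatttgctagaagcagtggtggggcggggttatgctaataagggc

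Ifit3 and Ifit1 each held the same pair of runs, TTTCACTTTC and TTTCAGTTTC, which began 156 and 122 bases before the start of Ifit3 and 104 and 85 bases before that of Ifit1. In Isg15 3 overlapping cores formed the run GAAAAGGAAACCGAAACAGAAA, 78 bases before the start. Oas1a and Oas1g, neighbouring copies of one gene, carried the identical run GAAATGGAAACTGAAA, 20 and 18 bases before their starts. Rsad2 held TTTCATTTTC at 120 bases, and Bst2 held GAAAATGAAACTGAAA at 130 bases. Besides the sequences shown, Oas3, Ddx60, Ddx58, Eif2ak2 and Ifih1 held the core, the latter 3 just after the annotated start. The windows of Ifit2, Oasl1, Oasl2, Cmpk2, Trim25 and 9 other genes did not hold these letters. The median log2 change between FLM_M and BMM was 1.49 over the 12 genes with the core and 1.63 over the 14 without it. In FLM_G against FLM_M the medians were -2.63 with the core and -2.20 without it. Neither difference was tested.

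Levels are given as scaled FPKM, which are fragments per kilobase corrected for sequencing depth, divided by a factor per library (0.801 to 1.14) that brings most genes to a common level. The steps of the lowest FPKM values put the libraries at 28550000 to 35680000 reads. Correlations of all tested genes were 0.986 to 0.992 between libraries of 1 culture and 0.785 to 0.936 between cultures, and no library stood apart from its culture. The sex of the cells moved with the comparisons against BMM: Ddx3y, on the Y chromosome, was at 8.47 to 10.4 in BMM and at or near 0 in both fetal liver cultures, while Xist, the RNA of the inactive X, was at 67.2 to 74.3 in FLM_M and 41.3 to 54.7 in FLM_G. FLM_G against FLM_M shares sex and tissue but differs in the whole medium. FLM_M had 30% L-cell supernatant and 20% serum, and FLM_G had 30 ng/ml of GM-CSF and 10% serum. Growth factor, serum and the rest of the supernatant cannot be told apart in this comparison. Sex, tissue, medium and the age of the donors (fetal, or not stated for BMM) cannot be told apart in the comparisons with BMM. All 8 macrophage markers looked up reached the level for testing, but they differed too: against BMM, Cd14 changed by 1.36, Fcgr1 by 0.91, Cd68 by 0.69 and Lyz2 by -0.81 in FLM_M, and Mertk by 2.69, Csf1r by -1.62 and Fcgr1 by -1.58 in FLM_G (log2, all called). Of the 8, 5 were higher and 2 lower than BMM in FLM_M, and 2 were higher and 5 lower in FLM_G. Of all genes tested, 22.7% were higher and 21.9% lower in FLM_M, and 33.8% higher and 34.1% lower in FLM_G. Their summed level was 7826 to 8246 in BMM, 5941 to 6128 in FLM_M and 26700 to 26990 in FLM_G. The sum was highest in FLM_G although 5 of the 8 were lower than BMM there, so it follows the most abundant markers and not the list as a whole. Of 6 markers of plasmacytoid dendritic cells, which make much interferon, the summed level was 2.51 to 2.89 in BMM, 4.32 to 4.50 in FLM_M and 0.622 to 1.34 in FLM_G. That sum came mostly from Tcf4 and Cox6a2, while the defining Siglech was at or near 0 and Ly6d and Klk1 were at 0. The sum of 6 stroma and endothelium markers was 1.38 to 1.63 in BMM, 6.43 to 8.36 in FLM_M and 4.24 to 4.44 in FLM_G. In that list Kdr, an endothelial receptor gene, had the order of the effector genes, with means of 0.948, 6.63 and 0.0551, and Pecam1 did so at 0.0301, 0.233 and 0.0203, while Cdh5 was highest in FLM_G at 4.28 and the 3 collagen genes were at or near 0. Zbtb46, of conventional dendritic cells, was highest in FLM_M at 0.331, beside 0.0137 in BMM and 0.0659 in FLM_G, and Epor, of the erythroid list, was at 0, 2.33 and 5.24. Of the hepatocyte markers Afp was at 1.79 in BMM and 2.19 in FLM_M and was lower in FLM_G, by -0.55 on the log2 scale against BMM, and the other 4 were at 0. Lymphocyte and granulocyte markers summed to at most 0.451 in any library. The part of any of these in the results was not tested.

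The effector genes were higher in FLM_M than in BMM, and lower in FLM_G than in both. Their summed level was 1053 to 1114 scaled FPKM in the 3 BMM libraries, 2722 to 2925 in FLM_M and 532 to 544 in FLM_G. As a share of all FPKM as deposited they took up 0.282 to 0.302%, 0.791 to 0.832% and 0.08 to 0.0836%. The median row stood at 13.0 in BMM, 40.5 in FLM_M and 3.27 in FLM_G. A mean of at least 50 was reached by 5 rows in BMM, 16 in FLM_M and 3 in FLM_G, and a mean under 1 was found for 1, 0 and 10 rows. In bulk RNA, fewer cells that express a gene and less RNA per cell cannot be told apart.

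**Figure D1:**
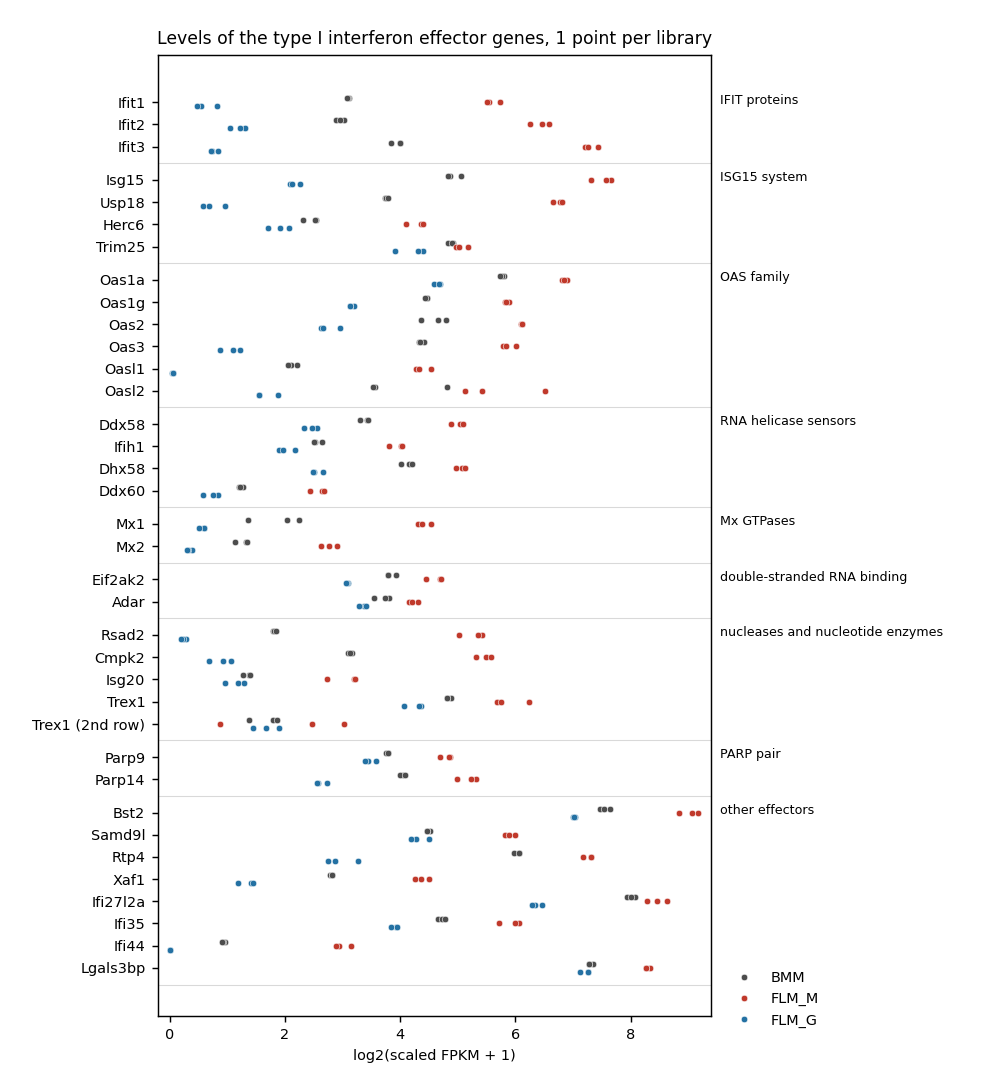
Level of each of the 36 member rows on the horizontal axis, log2(scaled FPKM + 1), with 1 point per library, BMM in grey, FLM_M in red and FLM_G in blue, and rows grouped by role. FLM_M lies to the right of BMM without overlap in 35 rows, and FLM_G lies to the left of FLM_M without overlap in 35 rows; the second Trex1 row is the exception in both.

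In FLM_M against BMM, 34 of the 36 rows were higher at an adjusted p under 0.05 (limma, Benjamini-Hochberg over all tested genes), against 22.7% of all genes tested. None was lower, against 21.9% of all genes, and none was lower at an unadjusted p under 0.05 in limma or by edgeR or DESeq2 on the deposited counts. A difference of at least 2-fold was called for 29 rows, against 3.74% of all genes. In 35 rows all FLM_M libraries lay above all BMM libraries, against 28.9% of all genes. The median log2 change of the members was 1.48, with a range of 0.18 to 3.47, while the median of all genes was -0.00 and their median absolute change 0.22. The uncalled rows were Trim25 and the second row of Trex1. On the count table edgeR called 30 of 31 rows higher and DESeq2 24 of 35, with Ifi35, Dhx58, Parp9, Mx2, Eif2ak2, Adar, Ddx60, Isg20 and Oas1a among those not called by DESeq2. That table holds 0.705% of the member reads that the FPKM imply, and whether it was counted on the opposite strand is uncertain. Differences between the 2 measures may therefore lie in the table rather than in the genes, which was not tested.

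In FLM_G against BMM, 32 rows were lower, against 34.1% of all genes. None was higher, against 33.8%, and none was higher at an unadjusted p under 0.05 in limma or DESeq2, with 1 such row in edgeR. A difference of at least 2-fold was called for 19 rows, against 8.91% of all genes. All FLM_G libraries lay below all BMM libraries in 33 rows, against 37.1% of all genes. The median log2 change was -1.21, with a range of -3.30 to -0.01, and the median absolute change of all genes was 0.39. On the deposited count table, 14 of 31 rows were lower by edgeR and 11 of 35 by DESeq2. Neither tool called Ifit3, Usp18, Herc6, Trim25, Oas1g, Ifih1, Mx1, Eif2ak2, Adar, Parp14, Bst2, Xaf1, Ifi27l2a, Ifi35 or Ifi44 there, all of which were called on the FPKM. Without scaling, 2081 genes were called higher and 6775 lower, where 4044 and 4081 were called with it.

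In FLM_G against FLM_M, which uses libraries of both comparisons above, 35 rows were lower, against 35.1% of all genes. None was higher, against 35.5%, and none was higher at an unadjusted p under 0.05 by limma, edgeR or DESeq2. At least 2-fold lower were 33 rows, against 10.2% of all genes, and 35 rows did not overlap in this direction, against 36.2%. The median log2 change was -2.53, with a range of -6.53 to -0.46, where the median absolute change of all genes was 0.44. On the count table neither edgeR nor DESeq2 called Trim25 and Ifi35, and DESeq2 did not call Adar and Isg20. Here, too, dropping the scaling moved the split of all genes, from 4246 higher and 4195 lower to 2218 and 7075.

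**Figure D2:**
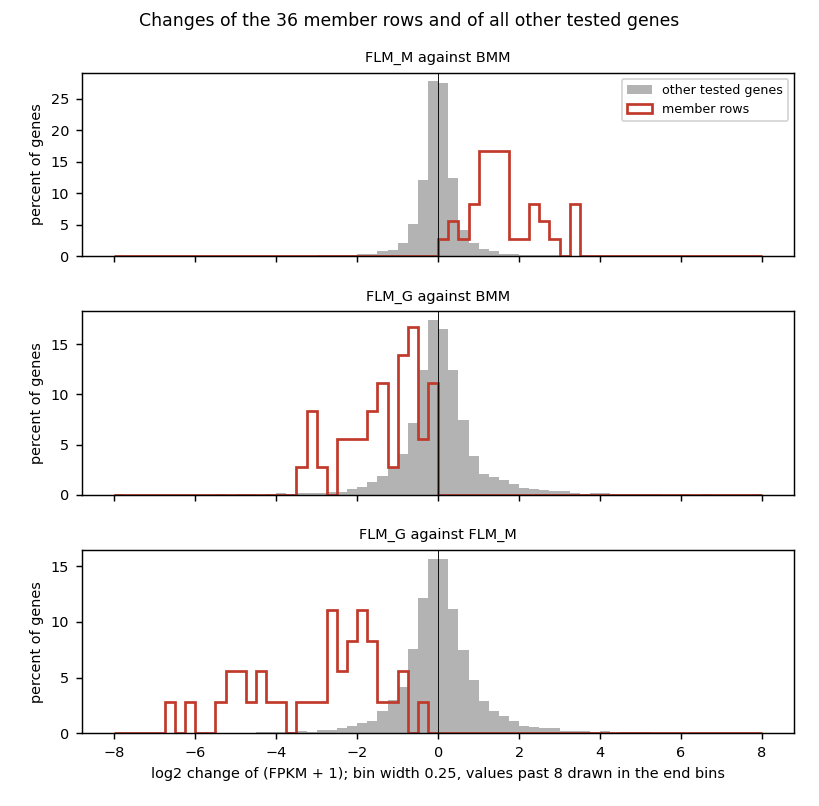
Distribution of log2 changes for the 36 member rows (red outline) and for all other tested genes (grey), as a percent of genes in bins on the vertical axis, 1 panel per comparison. The members lie above 0 in FLM_M against BMM and below 0 in both comparisons of FLM_G, with medians of 1.48, -1.21 and -2.53.

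The 3 IFIT proteins, which bind viral RNA and block its translation, had the largest median change of the role groups in each comparison. Ifit3 was at 13.4, 14.9 and 15.0 scaled FPKM in BMM, at 146, 152 and 172 in FLM_M and at 0.786, 0.670 and 0.645 in FLM_G. The cultures did not overlap, and the FLM_M mean was 10.9 times the BMM mean and 224 times the FLM_G mean. The log2 change was 3.35 (SE 0.07, adjusted p = 4.17e-09) between FLM_M and BMM and -6.53 (SE 0.07, adjusted p = 1.91e-11) between FLM_G and FLM_M, the largest decrease among the members. Ifit2 was at 6.40, 7.15 and 6.75 in BMM, at 86.9, 74.9 and 94.9 in FLM_M and at 1.47, 1.33 and 1.06 in FLM_G. Its log2 change of 3.47 was the largest increase of the members in FLM_M against BMM, although its promoter window held no ISRE core. Ifit1 was at 7.46 to 7.67 in BMM, 44.2 to 52.0 in FLM_M and 0.389 to 0.774 in FLM_G. The 3 genes lie near each other on chromosome 19, between 34550694 and 34650009 (GRCm38).

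ISG15 is a small protein that is attached to other proteins much as ubiquitin is, and USP18 removes it again and also restrains signalling at the interferon receptor. Isg15 was at 32.2, 28.3 and 27.5 in BMM, at 157, 201 and 189.9 in FLM_M and at 3.79, 3.25 and 3.37 in FLM_G. Usp18 was at 12.3, 12.5 and 12.9 in BMM, at 99.7, 109 and 111 in FLM_M and at 0.937, 0.603 and 0.5002 in FLM_G. For both genes the 3 ranges were apart, and the log2 changes were 2.59 and 2.99 in FLM_M against BMM and -2.76 and -3.02 in FLM_G against BMM. On the count table the change of Usp18 in FLM_G against BMM was -0.53 by edgeR (adjusted p = 0.579) and -0.54 by DESeq2 (adjusted p = 0.73), neither called. Herc6, the main ligase that attaches ISG15 in the mouse, followed with 3.98 to 4.84, 16.1 to 20.1 and 2.25 to 3.22. Its log2 changes were 1.83 against BMM in FLM_M and -0.56 in FLM_G. Trim25, a ubiquitin ligase that acts on RIG-I, was at 27.4, 29.1 and 28.7 in BMM, at 35.2, 30.4 and 31.5 in FLM_M and at 14.0, 20.2 and 18.9 in FLM_G. FLM_M lay just above BMM with a log2 change of 0.18 (SE 0.12, adjusted p = 0.264), which did not pass the test. It was called without FLM_G library 1, whose removal from the shared spread gave 0.18 with an adjusted p of 0.0486. FLM_G was lower than BMM by a log2 change of -0.67 (adjusted p = 0.00109).

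The OAS family makes a short nucleic acid signal that activates the RNA-cutting enzyme RNase L, while the OAS-like proteins do so little or not at all. All 6 measured members were higher in FLM_M than in BMM and lower in FLM_G than in BMM. Oas1a was at 55.0, 53.3 and 52.5 in BMM, at 111, 117 and 114 in FLM_M and at 24.8, 23.1 and 24.5 in FLM_G. Its spread within a culture was at most 3.67% of the mean, and the log2 changes were 1.08 (SE 0.04) and -1.12 (SE 0.04) against BMM. Oas1g, at 20.6 to 21.03, 55.5 to 58.4 and 7.73 to 8.15, changed by 1.40 and -1.30. Of the 101-base windows of its transcripts, 31.0% also occur in Oas1a, and 40.6% of those of Oas1a occur in Oas1g, so how reads were split between this pair is uncertain. Oas2 stood at 19.7 to 26.8 in BMM, 67.5 to 68.5 in FLM_M and 5.21 to 6.77 in FLM_G. Oas3 was at 20.3, 19.1 and 19.4 in BMM, at 63.6, 54.2 and 56.1 in FLM_M and at 1.32, 1.15 and 0.838 in FLM_G. Its change of -3.30 in FLM_G against BMM (SE 0.09, adjusted p = 4.85e-09) was the largest decrease of the members in that comparison, although its increase of 1.51 in FLM_M was near their median. Oasl1, which holds back translation of Irf7, was at 3.14 to 3.66 in BMM, 18.4 to 22.2 in FLM_M and 0.0275 to 0.0462 in FLM_G.

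Oasl2 was the least even member between libraries in FPKM apart from the second Trex1 row. It was at 10.8, 10.5 and 27.2 in BMM, at 90.0, 34.0 and 41.7 in FLM_M and at 2.66, 1.95 and 1.94 in FLM_G. BMM library 3 and FLM_M library 1 were each over 2 times the other libraries of their culture, yet the cultures did not overlap. In the count table Oasl2 held 15, 33 and 24 counts in BMM and 216, 184 and 191 in FLM_M. Neither library was over 2 times the others there. The log2 change in FLM_M against BMM was 1.72 (SE 0.42, adjusted p = 0.01), and it ran from 1.31 without FLM_M library 1 to 2.13 without BMM library 3. Against a null change of 1.5-fold the adjusted p was 0.14. Oasl2 lies beside Oasl1, and Oas2, Oas3, Oas1g and Oas1a lie together on chromosome 5, between 120730333 and 120907521.

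The RNA helicases that sense double-stranded RNA were also ordered FLM_M, BMM, FLM_G, with smaller differences than the IFIT genes. Ddx58, which encodes RIG-I, was at 9.72, 8.93 and 9.86 in BMM, at 31.8, 28.4 and 33.3 in FLM_M and at 4.86, 4.52 and 4.02 in FLM_G. Its log2 changes against BMM were 1.61 (adjusted p = 5.51e-07) and -0.94 (adjusted p = 8.24e-06). Ifih1, which encodes MDA5, was at 4.67 to 5.23 in BMM, 13.0 to 15.3 in FLM_M and 2.73 to 3.53 in FLM_G, with changes of 1.39 and -0.54. On the count table, edgeR put its change in FLM_G against BMM at 0.01, with no call. Dhx58, which encodes the regulator LGP2, had a smaller increase of 0.93 and a larger decrease of -1.58 against BMM. Ddx60, a helicase proposed to aid RIG-I, was low throughout, at 1.31 to 1.43, 4.42 to 5.42 and 0.487 to 0.783.

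The Mx GTPases assemble on viral nucleoproteins and block replication. Mx1 was at 3.13, 1.57 and 3.75 in BMM, at 18.8, 19.8 and 22.1 in FLM_M and at 0.510, 0.520 and 0.431 in FLM_G. BMM library 2 was the lowest of its culture but above every FLM_G library, and the log2 changes were 2.52 (SE 0.20) and -1.31 (SE 0.20) against BMM. Mx2 ran at 1.20 to 1.53, 5.19 to 6.50 and 0.227 to 0.303, with changes of 1.49 and -0.94. C57BL/6 mice are known to carry a defective Mx1 gene, and the annotation lists Mx2 as a polymorphic pseudogene, so neither RNA level is a measure of the protein.

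Eif2ak2 and Adar, whose products bind double-stranded RNA, were among the members with small differences. Eif2ak2 encodes the kinase PKR, which stops translation, and was at 14.2, 12.7 and 12.8 in BMM, at 24.8, 20.8 and 25.1 in FLM_M and at 7.55, 7.49 and 7.31 in FLM_G. Adar encodes an enzyme that edits RNA and keeps self RNA from being sensed, and was at 10.7 to 13.1, 16.8 to 18.8 and 8.76 to 9.57. Their changes were 0.78 and 0.52 in FLM_M against BMM, and -0.75 and -0.35 in FLM_G against BMM, all past the threshold. Neither was called in FLM_M against BMM when tested against a 1.5-fold change.

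The nucleases and nucleotide enzymes held both large and small differences. Rsad2 encodes viperin, which makes a nucleotide that ends viral RNA chains, and was at 2.46, 2.50 and 2.58 in BMM, at 41.9, 31.4 and 39.8 in FLM_M and at 0.215, 0.171 and 0.147 in FLM_G. The cultures lay far apart, with a FLM_M mean 15.0 times that of BMM and a log2 change of 3.45 (SE 0.10, adjusted p = 1.93e-08). Cmpk2, a nucleotide kinase gene next to Rsad2 on chromosome 12, was at 7.54 to 8.02 in BMM, 39.0 to 46.8 in FLM_M and 0.616 to 1.09 in FLM_G. Isg20, an exonuclease gene, was at 1.41, 1.60 and 1.62 in BMM, at 5.61, 8.16 and 8.26 in FLM_M and at 0.937, 1.43 and 1.28 in FLM_G. FLM_M was apart from both others, while BMM and FLM_G overlapped, with a log2 change of -0.20 (SE 0.14, adjusted p = 0.226).

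Trex1 encodes an exonuclease that clears DNA from the cytoplasm and so keeps the DNA sensor cGAS quiet. Its main row was at 28.7, 27.2 and 27.2 in BMM, at 50.6, 53.0 and 74.2 in FLM_M and at 19.5, 15.7 and 19.1 in FLM_G, with changes of 1.05 and -0.59 against BMM. In the count table this main row held 0 counts in every library, so its changes rest on the FPKM alone. The second row was at 2.45, 1.61 and 2.64 in BMM, at 0.842, 4.56 and 7.13 in FLM_M and at 1.71, 2.19 and 2.71 in FLM_G. FLM_M library 1 was the lowest of all 9 libraries and the other FLM_M libraries the highest, so no comparison of this row was called (adjusted p = 0.474, 0.988 and 0.404). Without FLM_M library 1 its change in FLM_M against BMM was 1.08 (adjusted p = 0.00549) and in FLM_G against FLM_M -1.09 (adjusted p = 0.00268). Trex1 shares 91.7% of its 101-base windows with transcripts of Atrip, the gene in front of it, so reads of the locus can be assigned in more than 1 way. Atrip, looked at after these values were seen, was at 1.67, 0.292 and 0.474 in the FLM_M libraries, highest in the library in which the second row was lowest.

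Parp9 and Parp14, which attach ADP-ribose to proteins or read it, lie near each other on chromosome 16. Parp14 was at 15.6, 15.0 and 15.9 in BMM, at 38.8, 30.8 and 36.5 in FLM_M and at 5.67, 4.96 and 4.88 in FLM_G. Parp9 was at 12.6 to 12.8, 24.7 to 28.1 and 9.48 to 11.0. Against BMM they were similar in FLM_M, with changes of 1.13 and 1.02, while in FLM_G Parp14 changed by -1.42 and Parp9 by -0.31 (both called). Parp9 shares 458 exonic bases with Dtx3l on the opposite strand.

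Among the other effectors were the most abundant members. Bst2, which encodes tetherin, a protein that holds budding virus on the cell surface, was at 198, 175 and 184 in BMM, at 455, 572 and 532 in FLM_M and at 127, 129.7 and 129 in FLM_G. It was the most abundant member in FLM_M, and its changes were 1.47 and -0.53 against BMM. Ifi27l2a, a gene of the small ISG12 protein family, was at 269, 244 and 255 in BMM, at 312, 397 and 350.2 in FLM_M and at 80.2, 76.7 and 87.5 in FLM_G. It led in BMM and showed the smallest called increase in FLM_M, 0.46 (SE 0.09, adjusted p = 0.00349), beside a decrease of -1.64 in FLM_G. Lgals3bp, a secreted glycoprotein gene, was at 161, 155 and 153 in BMM, at 322, 307 and 308 in FLM_M and at 137, 153 and 153 in FLM_G. FLM_M was close to 2 times BMM, while FLM_G and BMM differed by a log2 change of -0.08 (adjusted p = 0.207), and Lgals3bp was the most abundant member in FLM_G. The difference of Lgals3bp between FLM_G and BMM was called with upper-quartile scaling (adjusted p = 0.0338), quantile normalization (0.00106) and no scaling (2.30e-05). On the count table it was 0.26 by edgeR and 0.22 by DESeq2, with no call.

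Rtp4 and Samd9l were both higher in FLM_M, and Rtp4 was lower in FLM_G. Rtp4, a chaperone for receptor traffic whose product also binds viral RNA, was at 65.7, 61.8 and 65.5 in BMM, at 144, 158 and 158 in FLM_M and at 8.68, 5.73 and 6.29 in FLM_G. Samd9l, whose product restricts poxviruses and slows translation, was at 22.0, 21.2 and 21.2 in BMM, at 55.2, 58.3 and 62.6 in FLM_M and at 21.5, 18.5 and 17.3 in FLM_G. The log2 changes against BMM were 1.24 and 1.41 in FLM_M, and -3.07 (adjusted p = 4.13e-08) and -0.17 (adjusted p = 0.0944) in FLM_G, where Samd9l overlapped BMM. Without FLM_G library 1, the highest of its culture, Samd9l was called lower (-0.24, adjusted p = 0.0116). With all libraries it was also called lower under upper-quartile scaling (adjusted p = 0.0326), quantile normalization (0.0276) and no scaling (0.000268). On the count table its change was 0.29 by edgeR and 0.23 by DESeq2, with no call. Xaf1, which promotes cell death, was at 5.89 to 6.06 in BMM, 18.0 to 21.6 in FLM_M and 1.26 to 1.72 in FLM_G. Ifi35 was at 24.2 to 26.6, 51.7 to 65.8 and 13.4 to 14.4, but in the count table its change in FLM_G against BMM was 0.82 by edgeR, opposite to the FPKM and not called. Ifi35 shares 290 exonic bases with Gm11626 on the opposite strand, whose part in this was not tested. Ifi44 was at 0.937, 0.906 and 0.881 in BMM and at 6.69, 6.37 and 7.87 in FLM_M, and it was listed at 0 in every FLM_G library. It passed the filter on low values through FLM_M.

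**Figure D3:**
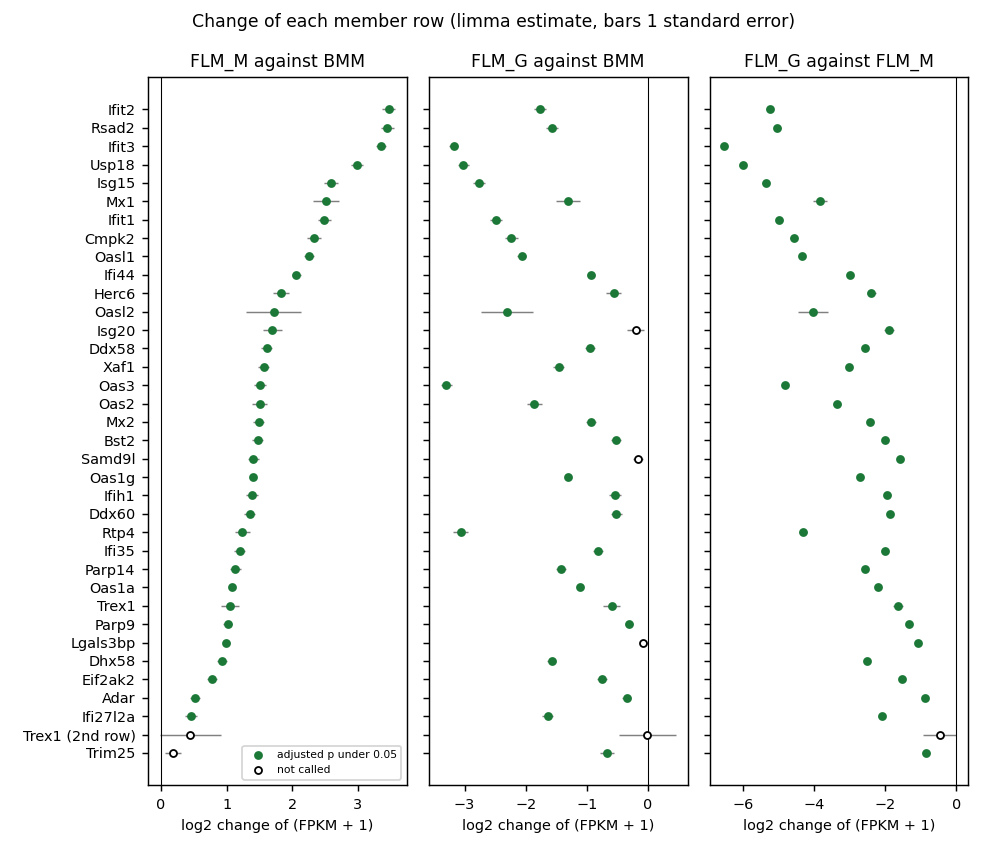
Log2 change of (FPKM + 1) of each member row in the 3 comparisons, with bars of 1 standard error, filled points for an adjusted p under 0.05 and open points for rows not called, ordered by the change in FLM_M against BMM. The order differs in FLM_G against BMM, where Oas3 (-3.30), Ifit3 (-3.18) and Rtp4 (-3.07) are lowest and Isg20, Samd9l, Lgals3bp and the second Trex1 row are open.

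The order of the members by their difference in FLM_M was not their order in FLM_G. Rsad2 and Ifit2 had the 2 largest increases but changed by -1.58 and -1.77 in FLM_G, whereas Oas3 and Rtp4 had moderate increases of 1.51 and 1.24 and the decreases of -3.30 and -3.07. The scale matters here, since adding 1 FPKM limits the decrease of a gene that is low in BMM. By the ratio of means, Rsad2 was 14.1 times lower in FLM_G than in BMM, Oas3 17.8 times, Rtp4 9.32 times, Ifit2 5.27 times and Oasl1 84.8 times. The Oasl1 ratio rests on a FLM_G mean of 0.0397 FPKM. Dhx58, Trim25 and Ifi27l2a were further from BMM in FLM_G than in FLM_M on either scale, and Samd9l, Isg20, Herc6 and Bst2 were further in FLM_M, a contrast that was not tested.

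The genes of the pathway upstream of the members were read from lists of the same kind. Beside the counts in this and the following lists, 22.7% of all genes tested were higher and 21.9% lower in FLM_M against BMM. In FLM_G against BMM these shares were 33.8% and 34.1%. No list was tested against them. Interferon itself was hardly seen. Of 21 interferon symbols (types I and III, and Ifng of type II), on 22 rows, 18 rows were at 0 in all libraries and no row reached 1 FPKM. Ifnb1, the gene of interferon-beta, was listed at 0 in all BMM libraries, at 0.545, 0.702 and 0.638 in FLM_M and at 0, 0 and 0.0529 in FLM_G. FLM_M lay above the others, but the row was under the filter and was not tested. Ifna2, Ifnab and Ifnz reached at most 0.0398 in any library.

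Of 6 genes of the receptor and its signal, 2 were higher and 1 lower in FLM_M than in BMM, and 1 was higher and 4 lower in FLM_G than in BMM. The receptor chain gene Ifnar1 was at 23.3, 24.3 and 24.1 in BMM, at 22.0, 20.1 and 20.5 in FLM_M and at 6.86, 7.72 and 7.27 in FLM_G. It was thus slightly lower in FLM_M than in BMM (log2 change -0.19, adjusted p = 0.0242), opposite to the members, and lower in FLM_G (-1.59, adjusted p = 1.94e-08). Ifnar2 was at 29.2 to 31.7, 30.5 to 34.2 and 17.3 to 19.3, with no call between FLM_M and BMM (0.09, adjusted p = 0.254). The kinase gene Tyk2 was higher in FLM_G, at 22.4 ± 0.663 against 13.2 ± 0.488 in BMM (SD, n = 3 each).

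Stat2 and Irf9 had the same order of cultures as most members. Stat2 was at 22.2, 23.9 and 26.2 in BMM, at 61.0, 61.9 and 66.5 in FLM_M and at 16.5, 14.7 and 14.8 in FLM_G, with changes of 1.36 and -0.62 against BMM. Irf9 showed a smaller difference in FLM_M, 0.47 (adjusted p = 0.00172), and -0.81 in FLM_G. Of 6 interferon regulatory factors tested, 1 was higher and 1 lower in FLM_M than in BMM, and 2 were higher and 3 lower in FLM_G. The higher gene in FLM_M was Irf7, whose product drives the interferon genes, at 22.3, 20.7 and 21.02 in BMM, 56.0, 56.4 and 58.8 in FLM_M and 3.11, 2.002 and 2.44 in FLM_G. Its changes of 1.38 and -2.68 against BMM lie within the range of the effector genes. Irf8, lower in FLM_M by -0.24 and in FLM_G by -0.49, and Irf3, higher in FLM_G by 0.34, differed little. Irf5 was at 44.7, 37.7 and 74.2 in BMM and 36.5, 31.1 and 67.5 in FLM_M, an uneven set, and was lower in FLM_G (-1.45, adjusted p = 0.00652).

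**Figure D4:**
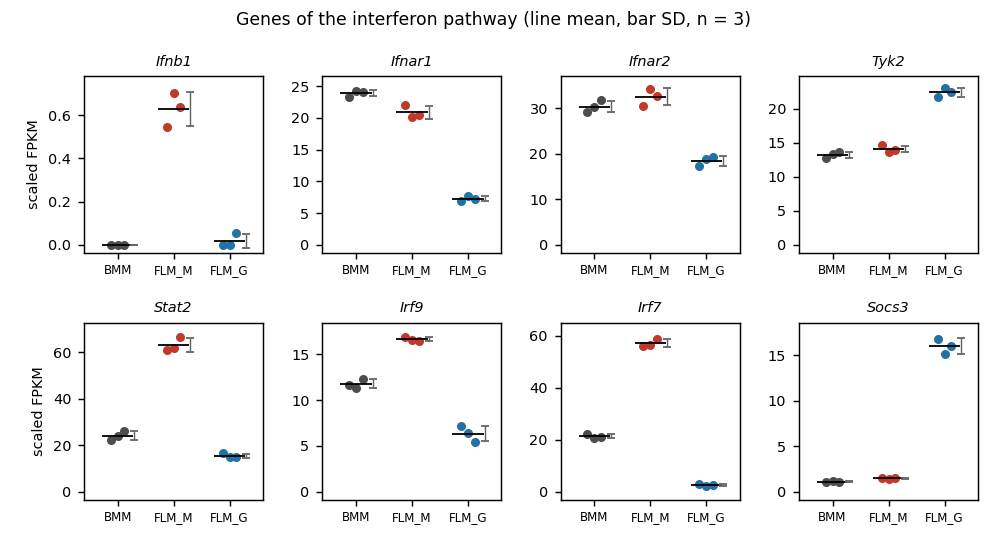
Scaled FPKM of 8 genes of the pathway in each library (points), with the mean (line) and SD (bar) of 3 libraries per culture, each panel with its own axis. Stat2, Irf9 and Irf7 are ordered FLM_M, BMM, FLM_G, Ifnar1 is lowest in FLM_G at 7.28, and Tyk2 and Socs3 are highest there at 22.4 and 16.0.

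Sensor adaptors and brakes did not share one direction. Of all genes tested, 22.7% were higher and 21.9% lower in FLM_M than in BMM, and 33.8% higher and 34.1% lower in FLM_G. The small counts of these lists were not tested against those shares. Of 11 adaptors and kinases between the sensors and interferon, 2 were higher and 2 lower in FLM_M than in BMM, and 3 were higher and 4 lower in FLM_G. Tank and Tmem173, which encodes STING, were higher in FLM_M, by 0.90 and 0.62. Myd88 and Ikbke were higher in FLM_G than in BMM, by 0.77 and 0.73, as was the adaptor gene Mavs, by 0.47, while Mb21d1, which encodes cGAS, was lower by -0.64. Azi2 was lower in FLM_G than in FLM_M, by -0.74. Of 10 brakes on signalling, 2 were higher and 1 lower in FLM_M, and 5 were higher and 3 lower in FLM_G. Socs3, a feedback inhibitor of cytokine receptors, was at 1.02, 1.11 and 1.10 in BMM, at 1.45, 1.42 and 1.49 in FLM_M and at 16.9, 15.2 and 16.0 in FLM_G. FLM_G was 14.9 times BMM, and the log2 change was 3.03 (SE 0.05, adjusted p = 2.86e-10). Ptpn2, a phosphatase gene, was higher than BMM in both fetal liver cultures, by 0.39 and 0.48, and Pias3, Irf2bp1 and Pias1 were lower in FLM_G, by -0.95, -0.81 and -0.75. Irf2bp1 was also lower in FLM_M, by -0.19.

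Of 10 genes whose products work with the members, 8 were higher in FLM_M than in BMM, and in FLM_G 8 were lower and 1 higher. Uba7, the enzyme that activates ISG15, changed by 1.09 in FLM_M and -0.51 in FLM_G. Znfx1, an RNA helicase gene, changed by 1.22 and -0.69, Tap1, a peptide transporter gene, by 1.04 and -1.004, Trim30a by 0.88 and -1.13 and Trim21 by 0.68 and -1.14. Ube2l6, the conjugating enzyme for ISG15, was at 36.5, 34.0 and 11.3 in BMM, so its library 3 was low, and at 23.5 to 25.9 in FLM_M and 6.76 to 8.45 in FLM_G. It was not called in FLM_M against BMM (0.01, adjusted p = 0.987).

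Near copies of the members lay in both directions. Of 12 tested, 7 were higher and 2 lower in FLM_M than in BMM, and 3 were higher and 6 lower in FLM_G. Ifit3b was at 4.06 to 4.47 in BMM, 44.6 to 52.9 in FLM_M and 0.186 to 0.342 in FLM_G, and 31.3% of the windows of Ifit3 occur in it, so their split is uncertain. Oas1b, a further copy of Oas1a, changed by 1.57 and -0.59, and Parp10, Parp11 and Parp12 by 1.37, 1.34 and 1.43 in FLM_M and by -0.37, -0.49 and -0.80 in FLM_G. Herc3, a relative of Herc6, changed by -0.68 in FLM_G and -0.31 in FLM_M. Ifi27, a relative of Ifi27l2a, was at 15.2, 16.0 and 15.5 in BMM, at 7.75, 9.19 and 7.50 in FLM_M and at 19.6, 22.3 and 21.9 in FLM_G. It was lower in FLM_M (-0.87, adjusted p = 3.07e-05) and higher in FLM_G (0.42, adjusted p = 0.00135), the reverse of Ifi27l2a in both comparisons.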

How the data were processed

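RNA of 9 libraries (3 each of BMM, FLM_M and FLM_G) was made into stranded mRNA libraries and read for 101 cycles from 1 end, per the labels' protocols. The submitters' processing notes name the tools HISAT2, StringTie, DESeq2, cutadapt, FastQC and bcl2fastq, without versions or roles, and the builds GRCm38 and mm10. The deposited FPKM of 46078 rows were the main measure. The deposited counts, whole numbers per gene, summed to 782400 to 1170813 per library. Genes whose mean FPKM was under 0.5 held 36.1% of these counts, and 840 of 1592 such genes with at least 50 counts overlapped an opposite-strand gene of at least 5 FPKM. The counts were therefore used in alternatives alone. Over the 36 rows and 9 libraries they came to 8399, or 0.705% of the reads that the FPKM imply.

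FPKM were scaled by unweighted TMM factors (edgeR 4.0.16). The 11952 genes that reached 1 FPKM in 3 or more libraries entered limma 3.58.1 (trend, R 4.3.3) as log2(FPKM + 1). The model had 1 mean per culture, used all 9 libraries and left 6 residual degrees of freedom. The pseudocount of 1 understates changes of low genes. Read depth was taken from FPKM steps: 28.9 to 34.3% of values under 5 reads lay within 0.02 of a whole read, against 2.73 to 2.97% at other depths. Too few values were whole to rebuild reads.

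Members and lists were chosen with earlier results of these data known. All members are named. From each other list up to 4 called genes are named, by size of change, if their higher mean reached 5 FPKM, as are Stat2, Irf9, Irf7, the receptor genes, Ifnb1 and near copies of members; 1 gene that this rule names is not reported here. Positions are from GENCODE M21 (GRCm38), which holds 35 of the 36 identifiers, and promoters from RefSeq on GRCm38.p6. Shared windows are 101-base stretches of transcripts found in another gene. On simulated data with 200 changed genes, limma recovered 68.7% of 1.5-fold, 91% of 2-fold and 100% of 4-fold changes in FLM_M against BMM. There were 6 false calls among 11323 genes. In FLM_G against BMM there were 15 among 11353, and in FLM_G against FLM_M 7 among 11336. Far fewer genes were changed there than were called in the data, so these rates may not carry over. Alternatives were RLE, upper-quartile, quantile and no scaling, no filter, a pseudocount of 0.1, a filter of 5 FPKM, fits to the 6 libraries of a comparison, the replicate block, a null change of 1.5-fold, DESeq2 1.42.0 and edgeR on the deposited counts, and each library left out.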

Additional observations from a re-analysis of the deposited data

How the results depend on the processing

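The counts of members called kept within 1.5 times their value under every alternative, except on the count table in FLM_G against BMM, where edgeR called 14 and DESeq2 called 11 lower. Leaving out 1 library gave 34 to 35 members higher in FLM_M against BMM, 32 to 33 lower in FLM_G against BMM and 35 to 36 lower in FLM_G against FLM_M, with 0 in the other directions (limma). The members hold 289 to 471 counts per BMM library and 102 to 254 per FLM_G library in that table, whose part in the lost calls was not tested. Over all genes, FLM_M against BMM gave 552 higher and 493 lower against a 1.5-fold change, 711 and 589 by edgeR and 340 and 498 by DESeq2. FLM_G against BMM gave 2081 and 6775 without scaling, 1402 and 1338 against a 1.5-fold change, 1288 and 1170 by edgeR and 1158 and 1037 by DESeq2. FLM_G against FLM_M gave 2218 and 7075, 1626 and 1536, 1425 and 1430, and 1505 and 1123. Dropping the scaling moved the median log2 change of all genes to -0.34 in FLM_G against BMM and -0.39 in FLM_G against FLM_M.

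In FLM_G against BMM the count table reversed the sign, without a call, of Ifi35 (0.82 by edgeR, 0.79 by DESeq2), Ifih1 (0.0143 by edgeR), Lgals3bp (0.26 and 0.22) and Samd9l (0.29 and 0.23); the cause was not tested. The second row of Trex1 reversed in FLM_M against BMM with DESeq2 (-0.62). In FLM_G against BMM, where its main change was -0.01, it reversed with quantile normalization (0.0029). It also reversed there without BMM library 1 (0.037) or 3 (0.076) and without FLM_G library 1 (0.12) or 2 (0.0017). Without any other single library it kept its sign, and all of these fits ran from -0.16 to 0.12. Same-numbered libraries had correlations of deviations of -0.0771 to 0.0899, and in FLM_G against BMM all were positive (0.0534 to 0.0899). With 3 libraries per culture, such values cannot show whether the numbers mark pairs or batches. The replicate block left 34, 32 and 35 members called and changed no call of a member.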
